A study of Rattus norvegicus with 24 samples.

Results

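The genes described here are 32 that make sterols and fatty acids or control their synthesis. They cover the mevalonate pathway, the steps from squalene to cholesterol, the control of the SREBP transcription factors, a sterol carrier, the supply of acetyl-CoA, and the synthesis and desaturation of fatty acids. They were chosen as a list of symbols and looked up in the first column of the deposited count tables, which hold 17055 genes. The tables held 30 of the 32, and all 30 were among the 9994 genes that passed the filter on low counts and were tested. Srebf1, which encodes the SREBP that drives fatty acid synthesis genes, and Acat2, the cytosolic thiolase that makes acetoacetyl-CoA, were not found under those symbols.

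The libraries came from PC12 cells, a line derived from a rat pheochromocytoma, which is a tumour of adrenal chromaffin cells. Per the labels, the vector line stably carries empty pcDNA3, and the α1ACT line stably expresses, from pcDNA3, the C-terminal part of the protein of CACNA1A, a calcium channel gene. Both lines were taken at times of 6 h, 24 h, 3 d and 10 d. Each of the 8 groups has 3 replicates, and total RNA of all 24 was sequenced. All groups shared the PC12 parent, the passage range, the serum-containing medium and the absence of a named treatment. The labels do not say from which event the times run, nor whether a line is 1 clone. With 1 line of each kind, an effect of α1ACT and any other difference between those lines cannot be told apart.

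Cells make cholesterol from acetyl-CoA through mevalonate, farnesyl diphosphate, squalene and lanosterol. When membranes of the endoplasmic reticulum run low in sterol, the escort protein SCAP carries SREBP precursors to the Golgi for cleavage, and the released fragments switch on most enzymes of this route together with desaturases and other fatty acid genes. INSIG proteins hold SCAP back when sterol is plentiful, and proliferating cells are known to draw on the pathway for membrane lipids and for the isoprenoids attached to proteins.

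The names of the deposited files go against the labels. Sample titles match the labels and use P for the vector line and Q11 for the α1ACT line, but the file of a library bears a time that is not the labelled one in 18 of 24 libraries, and in 12 of the 18 the line differs too. In all 24 the replicate number is the labelled one. By file name, vector 6 h is P at 6 h and vector 3 d is Q11 at 6 h, α1ACT 6 h is P at 24 h and α1ACT 3 d is Q11 at 24 h, vector 24 h is P at 3 d and vector 10 d is Q11 at 3 d, and α1ACT 24 h is P at 10 d and α1ACT 10 d is Q11 at 10 d. Groups below are named by the labels. The reading by file name is given where the comparisons are introduced, and it applies in the same way to the values of single genes. Read by file name, the line comparison at each time is the one within such a pair of labelled groups, and each labelled line comparison sets different times of 1 line against each other. The transgene has no row of its own in the tables, so the labels could not be checked on it.

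Gene counts per library ran from 8679560 to 14486248 (median 11663500), and 3 counts corresponded to 0.207 to 0.346 CPM, counts scaled to a common library size, which is the unit used below, with TMM factors of 0.981 to 1.02. All 15 chromaffin and sympathetic markers found in the tables were tested, and their summed level was 28282 to 39160 CPM. The leukocyte gene Ptprc, the fibroblast collagen gene Col1a2, the glial gene Sox10 and the adrenal cortex gene Cyp17a1 were at 0 in all 24 libraries, which allows up to 3 counts in each, and the 6 adipocyte markers summed to at most 0.589 CPM. Of 7 epithelial markers, summed levels ranged from 650 to 1944 CPM and were lowest in vector 24 h and vector 10 d (650 to 707 CPM), and the part of this difference in the results below was not tested. RNA was bulk, so fewer cells of a kind and less RNA per cell cannot be told apart.

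Over the 8 groups, the genes were at their lowest in vector 24 h and vector 10 d, the pair whose files both bear 3 d. These were the 2 lowest groups for 23 of the 30 genes, a count for which the share of all genes was not computed. In 16 of 30 genes, all 6 libraries of that pair lay below all 18 others, against 10.8% of all genes tested. The 16 were Mvd, Idi1 and Fdps of the mevalonate pathway, Sqle, Lss, Cyp51, Msmo1, Hsd17b7, Ebp and Dhcr7 of the sterol branch, the carrier Stard4, and Acss2, Acaca, Scd1, Fads1 and Fads2 of the fatty acid genes. A single gene, Scap, had these 6 libraries above all others, against 9.98% of all genes. From the lowest to the highest group mean, levels differed 1.22-fold for Acly and 8.50-fold for Scd1, with a median of 2.15-fold. The highest group was α1ACT 10 d for 9 genes, vector 3 d for 8, vector 6 h for 6, α1ACT 3 d for 3, and α1ACT 6 h and vector 10 d for 2 each. Shares of all genes were not computed for the highest group either. Differences among the 8 groups were called for all 30 genes in the joint edgeR test (adjusted p under 0.05), as they were for 89.5% of all genes.

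**Figure D1:**
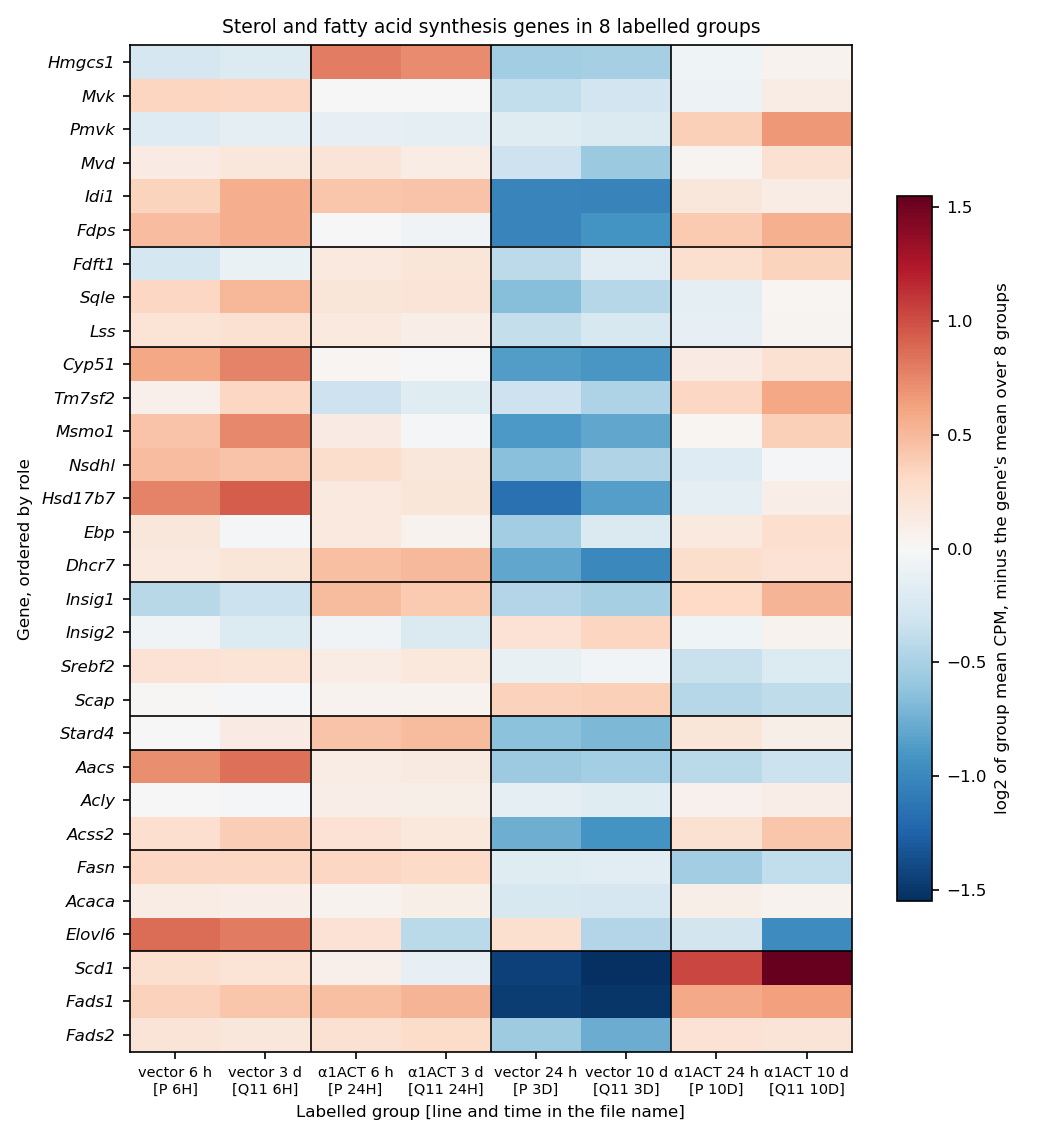
Heat map of the 30 genes (rows, ordered by role, with lines between roles) in the 8 labelled groups (columns, with the line and time of the file name in brackets); colour is the log2 group mean CPM minus the gene's mean over the 8 groups, n = 3 libraries per group. The columns vector 24 h and vector 10 d are blue for most genes, and Scap and Insig2 are exceptions with higher values there.

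A list of genes of DNA replication and cell division moved with this pattern. All 22 of its genes were lower in vector 24 h than in vector 6 h and in vector 10 d than in vector 3 d. Of all genes, 29.9% and 31% were called lower in these comparisons. The summed level of the 22 was 2818 to 3613 CPM in vector 24 h and 2692 to 3113 CPM in vector 10 d. In the other 18 libraries it was 6052 to 8896 CPM. The part of this difference in the results below was not tested.

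The line comparison was made at each labelled time with edgeR's quasi-likelihood test over all genes. At 24 h, 24 of 30 genes were higher in α1ACT than in vector and 4 were lower, with a median log2 fold change of 0.60; over all genes, 26.6% were called higher and 28.8% lower, with a median of -0.017. At 10 d, 24 were again higher and 4 lower, with a median of 0.67, beside 29.5% and 29.4% of all genes and a median of 0.0069. By file name these comparisons set 10 d against 3 d within P and within Q11. Called rises of at least 2-fold were seen for 5 genes at 24 h and 10 genes at 10 d, beside 3.49% and 3.5% of all genes.

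At 6 h, 5 genes were higher in α1ACT and 7 lower, beside 20.5% and 21.2% of all genes, and the median was -0.029. With library sizes alone in place of TMM factors, 6 were higher and 5 lower, so that the higher calls were 54.5% of all calls in place of 41.7%. At 3 d, 5 were higher and 11 lower, beside 19.9% and 19.4% of all genes, and the median was -0.055. The 5 higher genes were Hmgcs1, Fdft1, Dhcr7, Insig1 and Stard4 at both times. The 7 lower at 6 h were Mvk, Fdps, Cyp51, Tm7sf2, Nsdhl, Hsd17b7 and Aacs, and the 3 d comparison called these and Sqle, Msmo1, Acss2 and Elovl6. The 16 calls at 3 d fell to 10 without the libraries numbered 1 and to 9 without those numbered 3. By file name both comparisons set 24 h against 6 h within a line.

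The dependence of the line difference on time was tested with an interaction over the 4 labelled times, and 24 of 30 genes passed, beside 57.7% of all genes. The 6 that did not pass were Hmgcs1 (adjusted p = 0.137), Fdft1 (0.0816), Insig1 (0.391), Srebf2 (0.115), Acly (0.206) and Elovl6 (0.587). The line difference at 3 d minus that at 6 h was called for 0 of 30 genes by edgeR and by DESeq2, beside 0% of all genes, and 1 gene, Msmo1, had an unadjusted p under 0.05 (0.0255). The line difference at 10 d minus that at 24 h was called for 0 of 30 by both tools, beside 0.07% of all genes. There, 5 genes had an unadjusted p under 0.05, namely Pmvk, Mvd, Tm7sf2, Acss2 and Scd1, each with the larger difference at 10 d. Without the libraries numbered 2, that count of calls was 2. Shares of all genes at an unadjusted p under 0.05 were not computed, so the counts of 1 and 5 have no background.

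**Figure D2:**
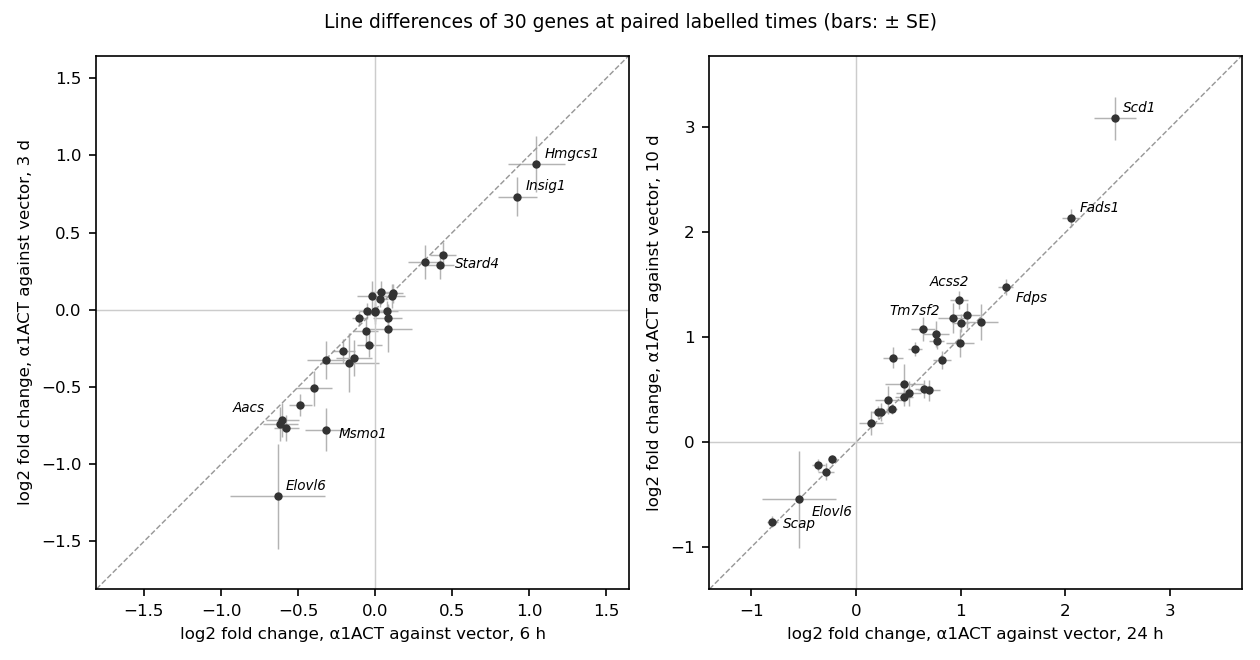
Log2 fold change of α1ACT against vector for each of the 30 genes, at 6 h (x axis) against 3 d (y axis) on the left and at 24 h against 10 d on the right; bars are standard errors of the edgeR fit and the dashed line marks equal values. Scd1 and Fads1 stand farthest to the upper right at 24 h and 10 d, and Hmgcs1 and Insig1 at 6 h and 3 d.

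Over time within the vector line, 2 genes were higher at 24 h than at 6 h and 22 lower, beside 31.6% and 29.9% of all genes, and the median log2 fold change was -0.68. At 10 d against 3 d, 2 were higher and 23 lower, beside 33.2% and 31% of all genes, and the median was -0.81. The higher genes were Scap and Insig2 each time. Called falls of at least 2-fold were seen for 9 genes at 24 h and 11 at 10 d, beside 4.99% and 5.28% of all genes. Within the α1ACT line, 4 genes were higher and 10 lower at 24 h than at 6 h, beside 21.7% and 22.4% of all genes, and 8 were higher and 8 lower at 10 d than at 3 d, beside 21.8% and 22.8%. By file name these are 3 d against 6 h and 10 d against 24 h within a line.

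By file name, 3 d against 24 h within a line corresponds to vector 24 h against α1ACT 6 h and to vector 10 d against α1ACT 3 d. In the first, 2 genes were higher and 25 lower, beside 26.8% and 27% of all genes. In the second, 2 were higher and 25 lower, beside 28.6% and 29.7% of all genes. The 2 higher genes were again Scap and Insig2. The comparisons described so far share groups, so their counts are not independent of each other.

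Within the pairs that share a file time, which by file name are the line comparisons, few calls were made. Vector 3 d against 6 h (6 h by file name) gave 0 calls of 30, beside 1.14% higher and 0.33% lower among all genes. Cyp51, Tm7sf2 and Msmo1 had an unadjusted p under 0.05 there, with log2 differences of 0.17, 0.24 and 0.30. The α1ACT 3 d libraries against those of 6 h (24 h by file name) gave 0 calls, beside 0.8% and 0.26%, and 0 genes with an unadjusted p under 0.05. Vector 10 d against 24 h (3 d by file name) gave 0 calls, beside 4.29% and 3.15%, and 7 genes with an unadjusted p under 0.05. The percentages are of calls at the adjusted p, and shares of all genes at an unadjusted p under 0.05 were not computed. Each of these 3 counts of calls was also 0 in DESeq2. For vector 10 d against 24 h the count of calls was 1 without vector 10 d replicate 1, 1 without vector 10 d replicate 3 and 2 without vector 24 h replicate 2. The α1ACT 10 d libraries against those of 24 h (10 d by file name) gave 1 call, Pmvk, beside 2.21% higher and 2.41% lower among all genes.

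Pmvk, phosphomevalonate kinase, read 97.4, 96.5 and 97.8 CPM in α1ACT 10 d and 79.9, 74.7 and 82.4 CPM in α1ACT 24 h. The 2 groups did not overlap, and the log2 difference was 0.30 ± 0.064 (SE), adjusted p = 0.0117. The call was lost, with the adjusted p given in brackets here and below, without α1ACT 10 d replicate 1 (0.0511), α1ACT 10 d replicate 3 (0.0644) or α1ACT 24 h replicate 2 (0.0856), and in a fit of the 2 groups alone (0.0528). The count for the comparison was 0 without the first or the second of these, 3 without α1ACT 10 d replicate 2 and 2 without α1ACT 24 h replicate 3. Pooled over 3 d and 10 d against 6 h and 24 h, which by file name is Q11 against P over all times, 2 genes were higher and 0 lower, beside 8.25% and 7.37% of all genes. They were Fdft1 (0.13 ± 0.044 (SE), adjusted p = 0.0365) and Hsd17b7 (0.19 ± 0.062 (SE), adjusted p = 0.0367), both changes under 1.5-fold. Leaving out 1 library gave 0 to 4 calls. Each of the 24 moved the count by over 1.5 times except α1ACT 6 h replicate 3, α1ACT 24 h replicate 2, α1ACT 10 d replicates 1 and 2, and vector 24 h replicates 1 and 2. An unmoved count did not always hold both genes. Of the 24 libraries, 14 ended the call of Fdft1 when left out (adjusted p = 0.0508 to 0.0808), namely all but α1ACT 6 h replicates 2 and 3, α1ACT 24 h replicate 2, α1ACT 10 d replicates 1 and 2, vector 6 h replicate 2, vector 24 h replicate 2, vector 3 d replicate 3 and vector 10 d replicates 2 and 3. Likewise 14 ended the call of Hsd17b7 (0.0503 to 0.0801), namely all but α1ACT 6 h replicate 3, α1ACT 24 h replicates 2 and 3, α1ACT 3 d replicate 3, α1ACT 10 d replicates 1 and 2, vector 24 h replicate 1, vector 3 d replicate 1 and vector 10 d replicates 1 and 3.

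Distances over the 30 genes gave the same pairs. The root mean square difference in log2 CPM between group means was 0.122 between α1ACT 6 h and 3 d, 0.127 between vector 6 h and 3 d, 0.180 between vector 24 h and 10 d, and 0.206 between α1ACT 24 h and 10 d. The next nearest groups, vector 6 h and α1ACT 6 h, were 0.391 apart, and the farthest, vector 3 d and vector 10 d, 1.04. Over all genes tested the 4 pairs were 0.185 to 0.222 apart.

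Desaturases put unsaturated bonds into fatty acids. From the lowest to the highest group mean, Scd1 (8.50-fold) and Fads1 (4.41-fold) had the widest ranges of the 30 genes, while Fads2, at 2.08-fold, lay just under the median. All 3 desaturases among the 30 genes were higher in α1ACT at 24 h and 10 d, beside 26.6% and 29.5% of all genes. They were lower in vector 24 h than 6 h and in vector 10 d than 3 d, beside 29.9% and 31%. Scd, another stearoyl-CoA desaturase entry, read 943 to 2476 CPM over all libraries, and Fads3 read 65.5 to 109 CPM. Neither is among the 30, and both are counted with the further fatty acid genes below. Fads1, which acts on polyunsaturated fatty acids, read 60.7, 48.9 and 54.6 CPM in vector 24 h and 56.7, 47.3 and 56.1 in vector 10 d. In α1ACT 24 h it read 212, 234 and 236, and in α1ACT 10 d 234, 222 and 249. These 2 vector groups lay far below the 2 α1ACT groups with no overlap. In vector 6 h it read 211, 163 and 207, in vector 3 d 204, 209 and 203, in α1ACT 6 h 206, 198 and 223 and in α1ACT 3 d 219.8, 215 and 220.5. The other 4 groups were thus near the level of α1ACT 24 h and 10 d. The log2 fold change of α1ACT against vector was 2.05 ± 0.086 (SE), adjusted p = 2.08e-15 at 24 h and 2.14 ± 0.087 (SE), adjusted p = 9.66e-16 at 10 d, in edgeR, which is 4.15-fold and 4.4-fold. Vector 24 h against 6 h differed by -1.82 ± 0.086 (SE), adjusted p = 3.94e-15, and vector 10 d against 3 d by -1.94 ± 0.086 (SE), adjusted p = 1.27e-15.

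Scd1, a stearoyl-CoA desaturase that makes monounsaturated fatty acids, read 103, 101 and 98.6 CPM in vector 24 h and 98.3, 88.2 and 96.1 in vector 10 d. In α1ACT 24 h it read 385, 466 and 826, and in α1ACT 10 d 789, 621 and 992. In the other 4 groups it read 302 to 339.9 CPM in vector 6 h and 3 d and 216 to 326 in α1ACT 6 h and 3 d. The 3 levels did not overlap, and replicates of α1ACT 24 h were widely spread (559 ± 234, SD, n = 3). Against vector, α1ACT was higher by 2.47 ± 0.20 (SE), adjusted p = 1.56e-10 at 24 h (5.55-fold) and 3.09 ± 0.21 (SE), adjusted p = 4.2e-12 at 10 d (8.49-fold). Over labelled time it went opposite ways in the 2 labelled lines, which by file name is 3 d against 6 h and 10 d against 24 h within a line. In vector it was lower at 24 h than at 6 h (-1.69 ± 0.20 (SE), adjusted p = 6.74e-08) and at 10 d than at 3 d (-1.75 ± 0.20 (SE), adjusted p = 3.5e-08), and in α1ACT it was higher (0.95 ± 0.19 (SE), adjusted p = 0.000222, and 1.68 ± 0.19 (SE), adjusted p = 1.39e-07). Fads2, the partner desaturase of Fads1, read 62.99, 80.5 and 85.99 CPM (lowest, median and highest of 6) in vector 24 h and 10 d and 133, 138 and 159 in α1ACT 24 h and 10 d. Its groups did not overlap either, and its log2 fold change was 0.77 ± 0.072 (SE), adjusted p = 1.5e-09 at 24 h and 0.96 ± 0.074 (SE), adjusted p = 4.6e-11 at 10 d.

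**Figure D3:**
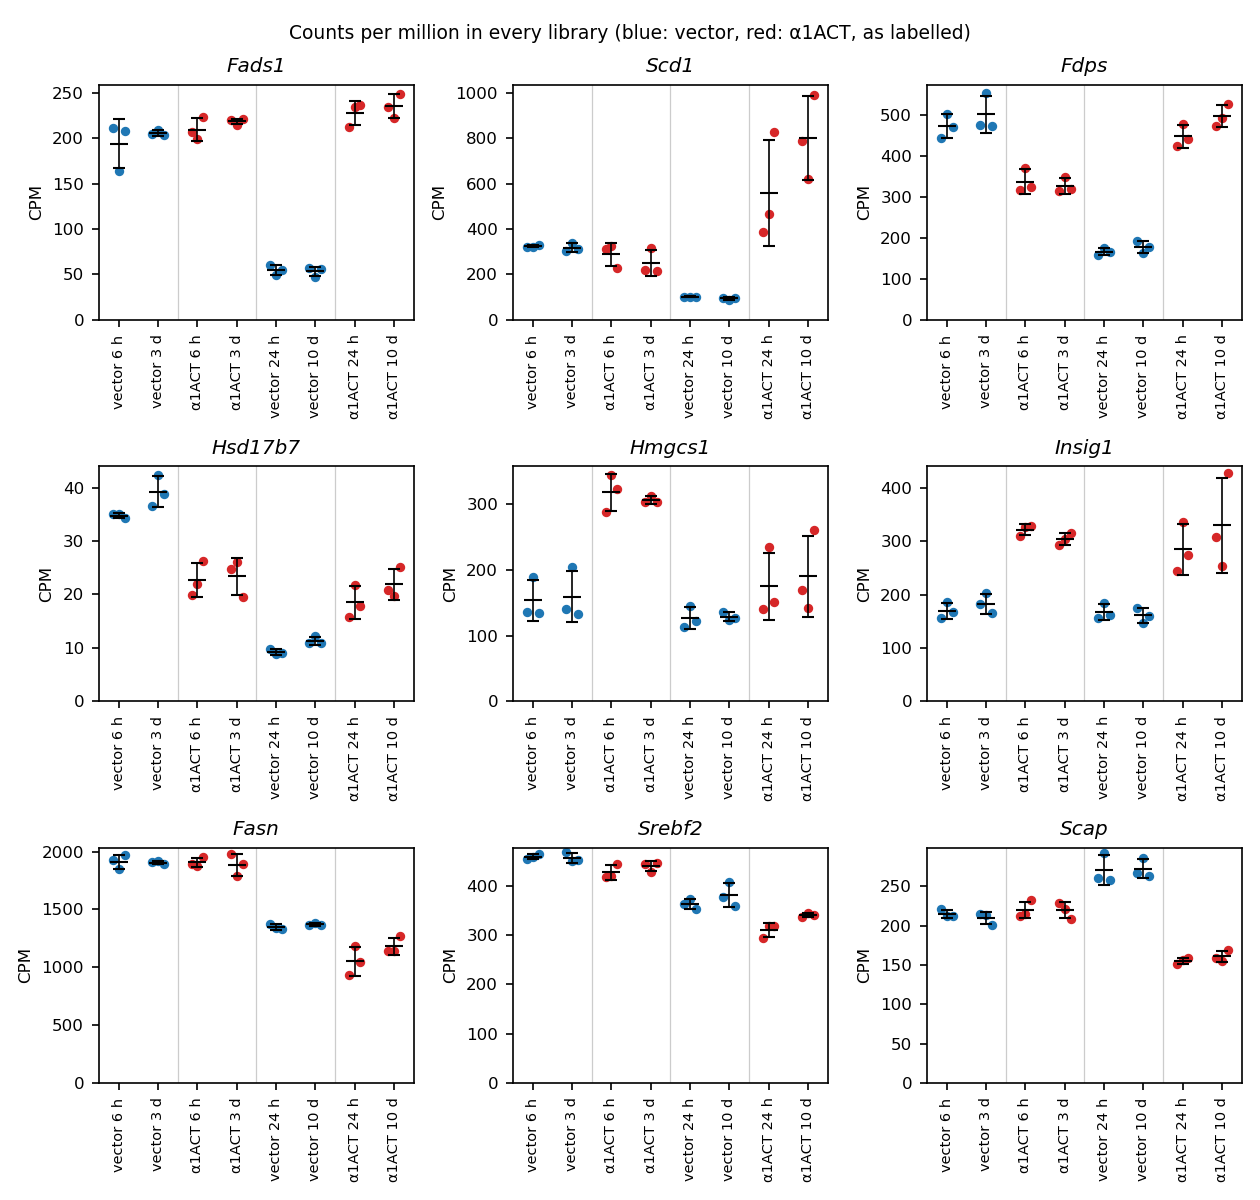
CPM of 9 genes in every library (points), with the group mean and ± SD (bars, n = 3), for the 8 labelled groups on the x axis; neighbouring groups between the grey lines share the time of their file names. Fads1, Scd1, Fdps and Hsd17b7 are lowest in vector 24 h and 10 d, Hmgcs1 is highest in α1ACT 6 h and 3 d, and Scap is highest where those 4 are lowest.

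All 6 mevalonate pathway genes tested were higher in α1ACT than in vector at 24 h, with a median log2 fold change of 0.51, and at 10 d, with a median of 0.85. The shares of all genes called higher were 26.6% and 29.5%. Fdps, which makes farnesyl diphosphate, read 158, 176 and 165 CPM in vector 24 h and 192, 164 and 178 in vector 10 d. It read 424, 478 and 439.7 in α1ACT 24 h and 472, 492 and 525 in α1ACT 10 d, well above those vector libraries. At the other 2 times the order was turned. It read 443, 501 and 470.5 in vector 6 h and 475, 553 and 473 in vector 3 d, above the 316, 371 and 324 of α1ACT 6 h and the 313, 349 and 318 of α1ACT 3 d. The log2 fold change of α1ACT against vector was 1.43 ± 0.075 (SE), adjusted p = 8.94e-14 at 24 h, 1.48 ± 0.075 (SE), adjusted p = 3.35e-14 at 10 d, -0.49 ± 0.072 (SE), adjusted p = 8.3e-06 at 6 h, and -0.62 ± 0.072 (SE), adjusted p = 3.15e-07 at 3 d. Its line difference thus passed the test in both directions, depending on the labelled time.

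Idi1, the isomerase just before Fdps in the pathway, read 26.00, 32.4 and 28.1 CPM in vector 24 h and 32.7, 24.8 and 27.8 in vector 10 d, against 51.6 to 84.4 in α1ACT 24 h and 10 d. It read 65.5 to 94.8 in vector 6 h and 3 d and 72.95 to 90.6 in α1ACT 6 h and 3 d, which overlap each other. It was lower in vector 24 h than in α1ACT 6 h by -1.46 ± 0.16 (SE), adjusted p = 3.37e-08, and in vector 10 d than in α1ACT 3 d by -1.47 ± 0.16 (SE), adjusted p = 2.22e-08. Line differences at 24 h and 10 d were 1.19 ± 0.16 and 1.15 ± 0.17 (SE). Pmvk stood apart from these. It read 48.7 to 56.6 CPM in vector 24 h and 10 d, 48.5 to 58.6 in vector 6 h and 3 d, and 52.7 to 59.5 in α1ACT 6 h and 3 d, all overlapping, and was raised in α1ACT 24 h and 10 d alone. Against α1ACT 6 h and 3 d, its log2 differences there were 0.50 ± 0.066 (SE), adjusted p = 1.13e-06, and 0.82 ± 0.066 (SE), adjusted p = 3.96e-10.

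Hmgcs1, the HMG-CoA synthase that begins the pathway, had another profile. It read 288, 344 and 322 CPM in α1ACT 6 h and 303, 312 and 303 in α1ACT 3 d. In vector 6 h it read 137, 189.8 and 135, and in vector 3 d 140.1, 204 and 133, all below those 6 libraries. In vector 24 h it read 113, 146 and 122, in vector 10 d 136, 124 and 127, in α1ACT 24 h 140.2, 234 and 150.5 and in α1ACT 10 d 169, 142 and 259.9. Replicate 2 was the highest of 3 in all groups but vector 10 d and α1ACT 10 d, and the lines overlapped at 24 h. The log2 fold change of α1ACT against vector was 1.05 ± 0.18 (SE), adjusted p = 6.42e-05 at 6 h, and 0.94 ± 0.18 (SE), adjusted p = 0.000224 at 3 d. At 24 h it was 0.46 ± 0.19 (SE), adjusted p = 0.0375, and the call was lost in DESeq2 (0.0805) and without α1ACT 24 h replicate 2 (0.381), vector 24 h replicate 1 (0.124) or vector 24 h replicate 3 (0.0941). At 10 d it was 0.56 ± 0.19 (SE), adjusted p = 0.0126, and the call was lost without α1ACT 10 d replicate 3 (0.209). Within α1ACT, Hmgcs1 was lower at 24 h than at 6 h (-0.87 ± 0.18 (SE), adjusted p = 0.000404) and at 10 d than at 3 d (-0.69 ± 0.18 (SE), adjusted p = 0.0033).

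Mvd, which decarboxylates mevalonate diphosphate, read 35.1 to 51.1 CPM in vector 24 h and 10 d, below the 55.3 to 83.3 of α1ACT 24 h and 10 d. Its log2 line difference was 0.36 ± 0.10 (SE), adjusted p = 0.00256 at 24 h, and 0.81 ± 0.10 (SE), adjusted p = 1.12e-07 at 10 d. Mvk, mevalonate kinase, was called at all 4 times, lower in α1ACT at 6 h (-0.32 ± 0.12) and 3 d (-0.32 ± 0.12) and higher at 24 h (0.31 ± 0.13) and 10 d (0.40 ± 0.13). Its calls at 6 h and 3 d were lost with library sizes alone in place of TMM factors (0.0732 and 0.0646), and at all 4 times single libraries ended the call. At 10 d the call was lost without α1ACT 10 d replicate 3 (0.0586) or vector 10 d replicate 2 (0.0825), and at 24 h without α1ACT 24 h replicate 2 (0.124) or 3 (0.113) or vector 24 h replicate 1 (0.22) or 3 (0.0537). At 3 d it was lost without α1ACT 3 d replicate 2 (0.051) or 3 (0.143) or vector 3 d replicate 2 (0.197) or 3 (0.0618). At 6 h it was lost without α1ACT 6 h replicate 1 (0.0925) or 2 (0.151) or vector 6 h replicate 1 (0.0711), 2 (0.0635) or 3 (0.156).

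The 3 genes from squalene to lanosterol were all higher in α1ACT at 24 h and 10 d, beside 26.6% and 29.5% of all genes. Fdft1, squalene synthase, was higher at all 4 times, by 0.42 ± 0.088 at 6 h, 0.65 ± 0.088 at 24 h, 0.29 ± 0.088 at 3 d and 0.51 ± 0.088 at 10 d on the log2 scale (SE). The call at 3 d was lost without vector 3 d replicate 3 (0.067). Its libraries read 249 to 348 CPM in α1ACT 24 h and 10 d and 165 to 227 in vector 24 h and 10 d, with no overlap, while vector 24 h and 6 h overlapped. Sqle, squalene epoxidase, read 60.6, 77.5 and 80.1 CPM (lowest, median and highest of 6) in vector 24 h and 10 d. In α1ACT 24 h and 10 d it read 84.7, 95.3 and 137, in α1ACT 6 h and 3 d 115, 119.7 and 131, and in vector 6 h and 3 d 129, 142 and 164. It was lower in vector 24 h than 6 h by -0.99 ± 0.12 (SE), adjusted p = 8.51e-08. Its call at 3 d (-0.31 ± 0.11) was lost in DESeq2 (0.0581) and without α1ACT 3 d replicate 1 (0.0809) or 3 (0.0734) or vector 3 d replicate 2 (0.135). Lss, lanosterol synthase, was called at 24 h (0.24 ± 0.086) and 10 d (0.29 ± 0.086). The first call was lost without α1ACT 24 h replicate 3 (0.0586) or vector 24 h replicate 2 (0.0666), and the second without α1ACT 10 d replicate 3 (0.121) and in a fit of the 2 groups alone (0.0543).

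The 7 genes from lanosterol to cholesterol were all higher in α1ACT at 24 h, with a median log2 fold change of 0.93, and at 10 d, with a median of 1.08. Among all genes, 26.6% and 29.5% were called higher at these times. At 6 h, 4 of the 7 were lower and 1, Dhcr7, was higher, beside 21.2% and 20.5% of all genes. Hsd17b7, a ketosteroid reductase of the route, read 9.85, 8.78 and 9.05 CPM in vector 24 h and 10.9, 12.2 and 10.97 in vector 10 d. It read 35.04, 35.01 and 34.3 in vector 6 h and 36.6, 42.3 and 38.8 in vector 3 d. Those 12 libraries fell into 2 ranges without overlap, and the fall in vector was -1.91 ± 0.13 (SE), adjusted p = 1.48e-12 at 24 h against 6 h, and -1.79 ± 0.12 (SE), adjusted p = 2.09e-12 at 10 d against 3 d. The α1ACT libraries lay between, at 19.5 to 26.2 CPM at 6 h and 3 d and 15.7 to 25.2 at 24 h and 10 d. Against vector, α1ACT was lower at 6 h (-0.61 ± 0.11 (SE), adjusted p = 0.000105) and 3 d (-0.74 ± 0.11) and higher at 24 h (0.99 ± 0.13 (SE), adjusted p = 6.86e-07) and 10 d (0.95 ± 0.13).

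Cyp51, which demethylates lanosterol, had a like order of groups. It read 559, 610.3 and 735 CPM (lowest, median and highest of 6) in vector 6 h and 3 d, 365, 386 and 424 in α1ACT 6 h and 3 d, 198, 205 and 223 in vector 24 h and 10 d, and 397, 418 and 523 in α1ACT 24 h and 10 d. The 2 α1ACT ranges overlapped, and the other 2 stood above and below them. Its log2 fold change against vector was -0.58 ± 0.082 (SE), adjusted p = 4.28e-06 at 6 h, -0.77 ± 0.082 (SE), adjusted p = 6.84e-08 at 3 d, 1.0 ± 0.084 (SE), adjusted p = 2.19e-10 at 24 h, and 1.14 ± 0.084 (SE), adjusted p = 2.36e-11 at 10 d. Msmo1, a methylsterol monooxygenase, acts later in the route than Cyp51. It read 315, 366 and 299 CPM in vector 3 d and 188, 193 and 191 in α1ACT 3 d. These did not overlap, and the difference was -0.78 ± 0.14 (SE), adjusted p = 7.96e-05. At 6 h it missed the threshold (-0.32 ± 0.14 (SE), adjusted p = 0.0667), and at 24 h and 10 d it was higher in α1ACT (0.93 ± 0.14, and 1.18 ± 0.14).

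Dhcr7, the reductase of the last step, read 18.04, 16.5 and 18.2 CPM in vector 10 d and 47.3, 52.8 and 47.9 in α1ACT 3 d. These are the lowest and the highest group, apart by -1.49 ± 0.12 (SE), adjusted p = 5.12e-11. It was higher in α1ACT at all 4 times, by 0.32 ± 0.11 at 6 h, 1.06 ± 0.12 at 24 h, 0.31 ± 0.11 at 3 d and 1.21 ± 0.12 at 10 d. The call at 6 h was lost without α1ACT 6 h replicate 1 (0.0603) or 2 (0.0635), and at 3 d without α1ACT 3 d replicate 2 (0.102) or vector 3 d replicate 1 (0.078) or 3 (0.117). Tm7sf2, a sterol reductase earlier in the route, was raised in α1ACT 24 h and 10 d. It read 47.8, 33.5 and 43.7 CPM in α1ACT 24 h and 50.01, 47.7 and 54.4 in α1ACT 10 d, and 26.03 to 30.6 in α1ACT 6 h and 3 d. The earlier and later α1ACT libraries did not overlap, and it was higher at 24 h than at 6 h by 0.64 ± 0.11 (SE), adjusted p = 6.31e-05, and at 10 d than at 3 d by 0.79 ± 0.11 (SE), adjusted p = 3.39e-06. Its call at 6 h (-0.40 ± 0.12, lower in α1ACT) was lost without vector 6 h replicate 1 (0.0917).

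Nsdhl, a dehydrogenase that takes part in removing methyl groups, read 44.8 to 46.6 CPM in vector 6 h and 3 d and 20.03 to 25.99 in vector 24 h and 10 d. It was higher in α1ACT at 24 h (0.46 ± 0.086) and 10 d (0.43 ± 0.086). At 6 h it was lower (-0.21 ± 0.077 (SE), adjusted p = 0.0352), but this call was lost with library sizes alone (0.0863), with no filter on low counts (0.0558) and on leaving out any of the 6 libraries compared: 0.0886, 0.0762 and 0.0607 without α1ACT 6 h replicate 1, 2 and 3, and 0.105, 0.082 and 0.0745 without vector 6 h replicate 1, 2 and 3. Ebp, a sterol isomerase, read 9.80 to 13.5 CPM in vector 24 h and 10 d, below all 18 other libraries, and was higher in α1ACT at 24 h (0.70 ± 0.10) and 10 d (0.50 ± 0.10).

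The genes that control SREBP did not move as one. By file name, the line comparisons of single genes at 6 h and 3 d set 24 h against 6 h within a line. Those at 24 h and 10 d set 10 d against 3 d. Insig1, itself an SREBP target that holds SCAP back, was higher in labelled α1ACT at all 4 labelled times. It read 311, 328 and 328 CPM in α1ACT 6 h, 244, 337 and 274 in α1ACT 24 h, 294, 304 and 316 in α1ACT 3 d and 309, 254 and 428 in α1ACT 10 d. All 12 of these libraries lay above the 12 vector libraries, which read 156 to 203 CPM at 6 h and 3 d and 148 to 185 at 24 h and 10 d. The log2 fold change was 0.92 ± 0.13 (SE), adjusted p = 2.62e-06 at 6 h, 0.76 ± 0.13 (SE), adjusted p = 1.26e-05 at 24 h, 0.73 ± 0.13 (SE), adjusted p = 5.82e-05 at 3 d, and 1.03 ± 0.13 (SE), adjusted p = 1.47e-07 at 10 d. Its 6 libraries of vector 24 h and 10 d overlapped those of vector 6 h and 3 d. For vector 24 h against 6 h it differed by -0.02 ± 0.13 (SE), adjusted p = 0.906.

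Scap, the escort of SREBP, ran the other way. It read 261, 292 and 258 CPM in vector 24 h and 267, 286 and 263 in vector 10 d, above all other libraries. In α1ACT 24 h it read 151, 156 and 158, and in α1ACT 10 d 159, 155 and 169, below all other libraries. In vector 6 h and 3 d it read 200.4 to 221, and in α1ACT 6 h and 3 d 208 to 232, which overlap. Against vector, α1ACT was lower, with log2 fold changes of -0.80 ± 0.054 (SE), adjusted p = 5.17e-12 at 24 h, and -0.76 ± 0.054 (SE), adjusted p = 1.22e-11 at 10 d. Vector 24 h was above 6 h by 0.33 ± 0.053 (SE), adjusted p = 6.44e-06, and vector 10 d above 3 d by 0.38 ± 0.053 (SE), adjusted p = 7.89e-07.

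Insig2, the second INSIG gene, read 33.3, 41.4 and 36.6 CPM in vector 24 h and 43.7, 36.1 and 39.96 in vector 10 d, against 29.8, 30.4 and 30.7 in α1ACT 24 h and 33.4, 30.5 and 34.96 in α1ACT 10 d. Within each of these times the lines did not overlap, and α1ACT was lower by -0.29 ± 0.081 (SE), adjusted p = 0.00401 at 24 h, and -0.28 ± 0.082 (SE), adjusted p = 0.00495 at 10 d. It was higher in vector 24 h than 6 h (0.28 ± 0.081) and in vector 10 d than 3 d (0.55 ± 0.082 (SE), adjusted p = 2.14e-06). Srebf2, which encodes the SREBP that drives sterol genes, read 449 to 468 CPM in vector 6 h and 3 d and 418 to 446 in α1ACT 6 h and 3 d. It read 351 to 408 in vector 24 h and 10 d and 294 to 344 in α1ACT 24 h and 10 d, so that its lowest groups were those of α1ACT. Its line difference was -0.22 ± 0.046 (SE), adjusted p = 0.000174 at 24 h, and -0.16 ± 0.046 (SE), adjusted p = 0.00369 at 10 d. Stard4, the soluble carrier of cholesterol, read 80.5 to 88.3 CPM in vector 24 h and 10 d, below all other libraries. It was higher in α1ACT at all 4 times, by 0.44 ± 0.084 at 6 h, 0.82 ± 0.087 at 24 h, 0.35 ± 0.084 at 3 d and 0.78 ± 0.088 at 10 d.

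Of the genes that supply acetyl-CoA and acetoacetyl-CoA, 2 of the 3 tested were higher in α1ACT at 24 h and 10 d. The shares of all genes were 26.6% and 29.5%. Acss2, which makes acetyl-CoA from acetate, read 51.7 to 71.95 CPM in vector 24 h and 10 d and 125 to 163 in α1ACT 24 h and 10 d. The ranges did not overlap, and the log2 fold change was 0.98 ± 0.082 (SE), adjusted p = 1.88e-10 at 24 h, and 1.35 ± 0.083 (SE), adjusted p = 1.04e-12 at 10 d. Its lower call at 3 d (-0.23 ± 0.079) was lost with library sizes alone (0.0687) and without α1ACT 3 d replicate 2 (0.0675) or 3 (0.0623) or vector 3 d replicate 2 (0.0599) or 3 (0.0614). Acly, which splits citrate, changed least of the 30, from 1091 ± 42.1 CPM in vector 10 d to 1336 ± 84.4 in α1ACT 6 h (SD, n = 3). Its line difference was 0.21 ± 0.06 (SE), adjusted p = 0.00392 at 24 h, and 0.28 ± 0.061 (SE), adjusted p = 0.000264 at 10 d. Aacs, which activates acetoacetate, read 242, 240.3 and 247 CPM in vector 6 h and 262, 285 and 251 in vector 3 d, the highest groups. It read 152, 168 and 161 in α1ACT 6 h, 164, 158 and 164 in α1ACT 3 d, 99.6, 132 and 97.9 in α1ACT 24 h and 107, 95.3 and 149.8 in α1ACT 10 d. Vector 24 h and 10 d, at 91.00 to 111, overlapped α1ACT 24 h and 10 d. Its line difference was -0.60 ± 0.11 (SE), adjusted p = 9.47e-05 at 6 h, -0.72 ± 0.11 (SE), adjusted p = 1.22e-05 at 3 d, 0.14 ± 0.11 (SE), adjusted p = 0.312 at 24 h, and 0.19 ± 0.12 (SE), adjusted p = 0.168 at 10 d. Acat3, which the RefSeq gene table gives as a synonym of Acat2 and which is not counted among the 30, read 28.9 to 38.5 CPM in vector 24 h and 10 d and 91.8 to 112 in α1ACT 24 h and 10 d. Its line difference was 1.53 ± 0.076 (SE), adjusted p = 4.16e-14 at 24 h, and 1.65 ± 0.078 (SE), adjusted p = 9.86e-15 at 10 d.

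Among the genes that build saturated fatty acids, Acaca had its lowest libraries in vector 24 h and 10 d, as the listed desaturases did, and Fasn and Elovl6 did not. Fasn, fatty acid synthase, read 1927, 1847 and 1966 CPM in vector 6 h and 1892, 1879 and 1952 in α1ACT 6 h, which overlap. It read 1376, 1342 and 1328 in vector 24 h and 1361, 1381 and 1368 in vector 10 d. In α1ACT 24 h it read 931, 1183 and 1042, and in α1ACT 10 d 1138, 1136 and 1266, the lowest 6 libraries of all. Against vector, the log2 fold change in α1ACT was -0.36 ± 0.06 (SE), adjusted p = 1.49e-05 at 24 h, and -0.22 ± 0.06 (SE), adjusted p = 0.00329 at 10 d. Within α1ACT it was lower at 24 h than at 6 h by -0.86 ± 0.06 (SE), adjusted p = 2.69e-11, and at 10 d than at 3 d by -0.68 ± 0.06 (SE), adjusted p = 2.05e-09, and within vector 24 h against 6 h differed by -0.50 ± 0.06. Acaca, the acetyl-CoA carboxylase that feeds Fasn, was lowest in vector 24 h and 10 d (309.7 to 339.9 CPM, against 393 to 421 in α1ACT 24 h and 10 d). Its line difference was 0.34 ± 0.052 (SE), adjusted p = 3.97e-06 at 24 h, and 0.32 ± 0.052 (SE), adjusted p = 1.13e-05 at 10 d.

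Elovl6, which lengthens fatty acids, was near the limit of counting, and its values carry the largest errors of the 30. It read 1.56, 1.47 and 1.45 CPM in vector 3 d and 0.615, 0.673 and 0.638 in α1ACT 3 d, where 3 counts come to 0.207 to 0.346 CPM over the libraries. These 2 groups did not overlap, and the log2 difference was -1.21 ± 0.34 (SE), adjusted p = 0.00656. At 6 h, 24 h and 10 d the difference was -0.63 ± 0.31, -0.55 ± 0.35 and -0.55 ± 0.46 (SE), none past the threshold (adjusted p = 0.102, 0.195 and 0.334).

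Promoters of 23 of the 30 genes were found in the RefSeq table (build GRCr8), 22 by symbol and Scd1 through its synonym. SREBPs are known to act beside NF-Y, which binds CCAAT boxes, and Sp1, which binds GC boxes. The CCAAT box (CCAAT, or ATTGG on the other strand) was in 17 of the 23 promoters (73.9%), against 37.5% of all 33469 promoters of the same length, 300 bases. The GC box (GGGCGG, or CCGCCC) was in 18 of 23 (78.3%), against 33.1%. A sterol regulatory element spelled TCACNCCAC (GTGGNGTGA on the other strand) was in 0 of 23, against 374 of all 33469, which says only that these letters are not in these windows. None of the 3 motifs contains another, and the matches are a description with no test. The 250 bases before the start are shown for Fads1, Fdps and Hsd17b7, among the genes with the largest falls in vector 24 h and 10 d, and for Scap, which rose there. They lie at chr1:216252442-216252691 (plus strand), chr2:176804817-176805066 (minus strand), chr13:84722755-84723004 (minus strand) and chr8:119184188-119184437 (plus strand). Capitals mark CCAAT boxes on either strand, and Scap has none. The box is also absent for Scd1, Cyp51, Dhcr7, Fads2 and Aacs, which were lowest in vector 24 h and 10 d. Insig2, which rose there, has 1. The genes shown thus do not stand for the rest, and whether the box goes with the changes was not tested.
Fads1: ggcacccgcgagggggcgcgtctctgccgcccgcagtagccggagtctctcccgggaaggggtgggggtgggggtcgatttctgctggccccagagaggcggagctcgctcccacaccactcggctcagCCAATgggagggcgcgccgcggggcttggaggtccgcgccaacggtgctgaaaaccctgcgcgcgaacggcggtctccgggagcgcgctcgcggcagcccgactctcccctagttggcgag
Fdps: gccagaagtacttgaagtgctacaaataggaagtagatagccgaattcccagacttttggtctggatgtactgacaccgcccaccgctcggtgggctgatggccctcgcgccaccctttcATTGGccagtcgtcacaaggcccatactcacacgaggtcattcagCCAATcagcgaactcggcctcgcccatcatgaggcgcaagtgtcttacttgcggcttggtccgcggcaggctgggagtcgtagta
Hsd17b7: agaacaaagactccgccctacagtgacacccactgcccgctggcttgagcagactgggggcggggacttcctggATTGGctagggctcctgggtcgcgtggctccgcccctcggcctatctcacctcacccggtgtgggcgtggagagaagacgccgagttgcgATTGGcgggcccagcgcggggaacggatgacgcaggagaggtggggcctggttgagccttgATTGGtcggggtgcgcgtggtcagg
Scap: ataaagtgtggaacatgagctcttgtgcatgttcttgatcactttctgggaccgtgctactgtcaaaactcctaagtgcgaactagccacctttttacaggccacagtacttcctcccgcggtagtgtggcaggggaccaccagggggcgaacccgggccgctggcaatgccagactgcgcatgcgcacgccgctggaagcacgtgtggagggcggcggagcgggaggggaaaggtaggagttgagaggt

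Other genes of lipid metabolism, taken from lists of known roles, were counted beside the 30. These lists, like the 30, were chosen with earlier results of these data known. Over all genes, as given above, 26.6% were higher in α1ACT and 28.8% lower at 24 h, and 29.5% and 29.4% at 10 d. Of 13 further sterol and isoprenoid enzymes, 4 were higher and 4 lower at 24 h (30.8% each) and 4 higher and 5 lower at 10 d (30.8% and 38.5%), shares near those of all genes at 24 h. For 10 genes of SREBP processing and its partner factors, the counts were 2 higher and 3 lower at 24 h (20% and 30%) and 1 higher and 7 lower at 10 d (10% and 70%). For 19 genes of sterol uptake, storage and efflux they were 4 and 9 at 24 h (21.1% and 47.4%) and 6 and 7 at 10 d (31.6% and 36.8%). Of 24 further genes of fatty acid and glycerolipid synthesis, 10 were higher and 4 lower at 24 h (41.7% and 16.7%) and 9 and 4 at 10 d (37.5% and 16.7%). Of 21 genes of fatty acid oxidation, the route that breaks fatty acids down, 9 were higher and 3 lower at 24 h (42.9% and 14.3%) and 13 and 1 at 10 d (61.9% and 4.76%). Median log2 fold changes at 10 d were 0.11, -0.23, -0.019, 0.17 and 0.28 for these 5 lists in that order, against 0.67 for the 30 genes and 0.0069 for all genes. In vector 10 d against 3 d, the oxidation genes counted 2 higher and 14 lower and the uptake, storage and efflux genes 11 higher and 5 lower, beside 33.2% and 31% of all genes. Of the 22 replication and division genes, all were higher in α1ACT at 24 h and 10 d, while at 6 h 0 were higher and 12 lower and at 3 d 2 were higher and 6 lower, beside 20.5% and 21.2% of all genes at 6 h and 19.9% and 19.4% at 3 d. Differences between lists were not tested.

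**Figure D4:**
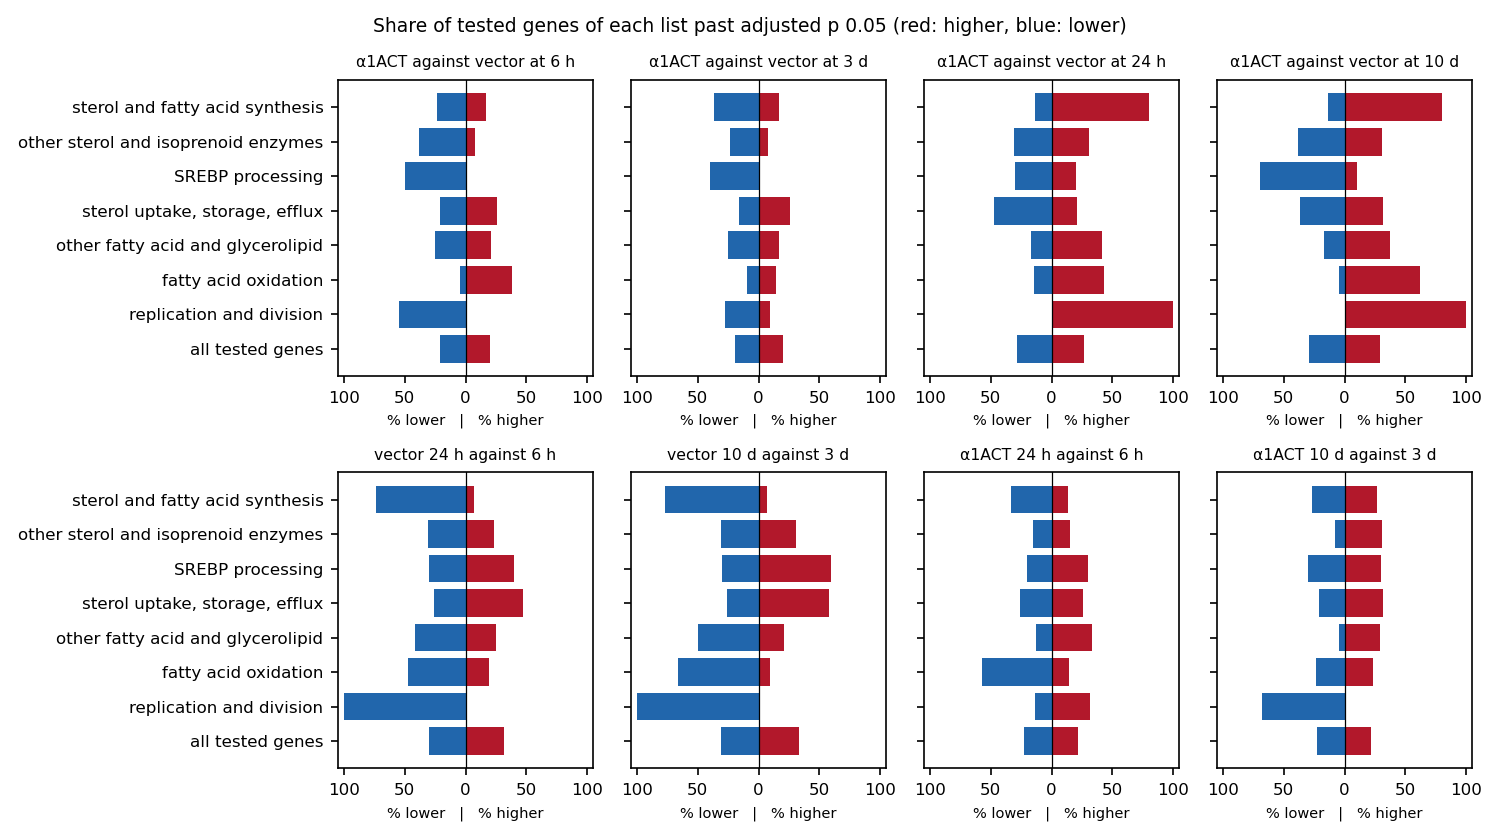
Share (%) of the tested genes of each list called higher (red, right) or lower (blue, left) at adjusted p under 0.05 in 8 comparisons; bars start at 0, and all tested genes are the bottom bar. The 30 sterol and fatty acid synthesis genes (top bar) and the 22 replication and division genes are called mostly higher in α1ACT at 24 h and 10 d and mostly lower in vector 24 h and 10 d.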

How the data were processed

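Total RNA of 24 PC12 libraries was measured as read counts per gene. Per the labels' protocols, libraries came from a stranded, ribosomal RNA-depleted kit. The authors deposited 1 table of whole-number counts per library, with no normalization. The submitters' processing notes name HTSeq 0.5.4p5, TopHat2 2.0.10, FastQC 0.11.2, edgeR without a version, and Picard 1.117, with the build rn5. Their roles, the annotation, the strand setting and the handling of reads shared between near-identical genes were not given in the sources used here, so overlapping genes and genes with close copies are uncertain. Summary lines at the end of each table stayed out of library sizes; reads outside genes came to 47.8% to 52.9% of those counted or left outside genes.

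Groups came from the labels and files from the assignment of each library, never from file names. Counts were fitted with edgeR 4.0.16 in R 4.3.3: TMM factors, genes kept by a minimum count of 10 and a minimum total of 15, 1 coefficient per group over all 24 libraries (16 residual degrees of freedom), quasi-likelihood F-tests and Benjamini-Hochberg adjustment over 9994 genes at 0.05. The common biological coefficient of variation was 5.75%. Log2 fold changes are ± SE, and CPM values use TMM-scaled library sizes. With 3 replicates called biological but not said to be separate cultures, p-values then measure only how these samples spread, which may be technical. Replicate pairs differed by 1.87 to 9.99 in chi-square per degree of freedom, more than the same library sequenced again would. This measure cannot tell separate cultures from separate libraries of the same culture. The fitting was tested on simulated data. DESeq2 1.42.0, other scalings, no filter, 2-group fits, replicate blocks and left-out replicates were alternatives.

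The genes and lists were chosen with earlier results of these data known. Per comparison, up to 3 genes with the largest rise and 3 with the largest fall, among calls whose groups do not overlap, were given with per-library values; other genes are given by role. Among the comparisons, every correlation between the deviations of same-numbered replicates was over 0.1 only for α1ACT against vector at 3 d (0.124 to 0.318). At 6 h these correlations ran from 0.098 to 0.342, so the cut of 0.1 parts like cases. Libraries numbered 2 had positive correlations between all groups (0.0392 to 0.342). The labels do not say what the numbers share. Promoters came from the RefSeq table of GRCr8, whose coordinates were not mixed with those of the files.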

Additional observations from a re-analysis of the deposited data

Results flagged for a closer look

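The line difference changed over the 4 labelled times for 24 of the 30 genes, by the interaction test of edgeR over all 8 groups. Over all genes, 57.7% passed the same test. At 24 h and 10 d most of the 30 were called higher in α1ACT, beside 26.6% and 29.5% of all genes. All genes were near even at 6 h (20.5% higher, 21.2% lower) and 3 d (19.9% and 19.4%). Of the 30, more were called lower than higher at 6 h and 3 d. At 6 h this order rested on the scaling, with 5 higher and 7 lower under TMM factors. With library sizes alone, 6 were higher and 5 lower. By file name, the labelled line differences set 10 d against 3 d and 24 h against 6 h within a line, and lines and times as labelled cannot be told apart from that reading here.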

How the results depend on the processing

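Of 107 counts of called genes recomputed under another setting, 102 were within 1.5 times the value reported. The exceptions were all small counts. For α1ACT 10 d against 24 h (1 call), no filter on low counts gave 2, the 2 groups alone 0 and the replicate block 2. For vector 10 d against 24 h (0 calls), no filter gave 1. For vector 3 d against 6 h (0 calls), the 2 groups alone gave 1. Of 855 recomputed values for the genes named by rule, 841 kept their direction and side of the threshold, 14 kept the direction but missed the threshold, and 0 reversed. The cause of these changes was not tested.

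With replicates left out in turn, the counts ran from 8 to 12 (α1ACT against vector, 6 h), 26 to 28 (24 h), 9 to 17 (3 d) and 24 to 29 (10 d). Over time they ran from 23 to 26 (vector 24 h against 6 h), 24 to 25 (vector 10 d against 3 d), 10 to 18 (α1ACT 24 h against 6 h) and 11 to 16 (α1ACT 10 d against 3 d). Across lines and times they ran from 25 to 27 (vector 24 h against α1ACT 6 h) and 24 to 27 (vector 10 d against α1ACT 3 d). Within pairs of 1 file time they ran from 0 to 0 (vector and α1ACT 3 d against 6 h), 0 to 5 (vector 10 d against 24 h) and 0 to 12 (α1ACT 10 d against 24 h), and pooled from 0 to 8 (0 to 4 with 1 library left out). The highest values of the last 3 came without all libraries numbered 2. The joint test gave 30 to 30, the interaction 22 to 25, the 10 d minus 24 h difference 0 to 2 and the 3 d minus 6 h difference 0 to 0. At 3 d, where every correlation of same-numbered samples was over 0.1, the replicate block gave 17 calls, 6 higher and 11 lower, against 16. No scaling moved the median of all genes by over 0.1 on the log2 scale. Depth limited Elovl6, whose lowest library read 0.318 CPM.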
